A study of Mus musculus with 8 samples.

Results

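The Bcl2 family decides whether a cell opens its mitochondria to death. Its survival proteins, here Bcl2l1 (BCL-XL) and Mcl1, hold the effectors Bax and Bak1 in check. BH3-only proteins, here Bid, Bik, Bad, Bbc3 (PUMA), Pmaip1 (NOXA) and Bcl2l11 (BIM), bind the survival proteins or act on the effectors directly, and once Bax or Bak1 form pores the mitochondria release cytochrome c and caspases are switched on. In the intestine this machinery sets the rate at which damaged crypt cells die, and p53 is a known activator of Bax, Bbc3 and Pmaip1.

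The 10 genes were taken from the read count table by their symbols, and all 10 were among the 13420 genes listed. Of these, 8 are pro-death (2 effectors and 6 BH3-only genes) and 2 are survival genes. Mouse small intestinal organoids were grown pure or mixed for 3 days, and the question was how each population differs in pure and mixed culture, and how cancer cells differ from wild-type (WT) cells. WT cells came from mTmG organoids on the C57BL/6 background, which carry a membrane-bound tdTomato. Cancer cells came from a Villin-CreERT2, Apc fl/fl organoid line on a background given as C57BL/6 (F6), in which Trp53 is written as Tr53 fl/R172H in the labels. They carried Dendra2, and the Villin promoter restricts the recombinase to the epithelium. Mixed cultures held 2 parts of WT to 1 part of cancer cells. Live cells, negative for DAPI, were sorted by tdTomato or Dendra2, so cells that had lost membrane integrity were not sequenced.

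Pure WT (A01 and A05), mixed WT (A02 and A06), pure cancer (A03 and A07) and mixed cancer cells (A04 and A08) had 2 libraries each, named here by well. The labels describe all WT libraries alike and all cancer libraries alike, and nothing says whether the 2 libraries of a group came from separate cultures, so the p-values measure only the spread between these libraries. CEL-Seq counts the 3′ end of each transcript, so a count does not grow with transcript length. Libraries held 73109 (A02) to 4733121 (A04) reads on genes. Levels are given as normalized CPM, read counts brought to equal library totals with TMM factors, and at this depth 3 reads, the upper limit of a count of 0, stand for 39.3 CPM in A02 and 0.587 CPM in A04. The whole family had 20 reads in A02, 55 in A03, 93 in A08 and 160 to 2138 in the other libraries. These limits and all intervals on counts cover counting error only. Epithelium markers such as Epcam and Krt8 summed to 4503 to 15254 CPM in every library, and only 2 of 8 markers of cells outside the epithelium were listed, at 0 to 5.25 CPM together. Of 10 Wnt feedback genes, a group known to rise with loss of Apc, 7 were tested. In pure culture 3 of the 7 had a value above 0 in cancer against WT cells (median log2 fold change −0.91), with Nkd1 and Notum called higher and Ascl2, a stem cell factor, called lower (−2.00, adjusted p = 0.0437). In mixed culture all 7 had a value above 0 (median 1.31), and Nkd1, Notum and Axin2 were called higher. The WT side differed too. The Wnt feedback genes summed to 333 to 403 CPM in pure and 39.3 to 152 CPM in mixed WT libraries. They summed to 416 to 436 CPM in pure and 568 to 783 CPM in mixed cancer libraries. Axin2 stood at 76.0 and 155 CPM in pure WT, 0 and 20.4 CPM in mixed WT, and 52.5 and 68.8 CPM in pure cancer libraries. Nkd1 stood at 114 to 283 CPM in cancer and 0 to 13.1 CPM in WT libraries.

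A gene was called at an adjusted p under 0.05 (edgeR, over 5264 tested genes). Of the 10 members, 6 passed the filter on low counts and were tested (Bcl2l1, Mcl1, Bak1, Bad, Bcl2l11 and Pmaip1), and Bax, Bid, Bik and Bbc3 did not pass. The filter weighs counts against the depth of each library. Bax, with a mean of 16.75 reads per library, thus failed where Pmaip1, with 13.5, passed. None of the 6 was called upon mixing, in WT cells (0.741% of all tested genes were called), in cancer cells (0% of genes, 69 at an unadjusted p under 0.05) or in the difference between both changes (0.076%). None was called between pure cancer and pure WT cells (9.95% of genes called) or between mixed cancer and mixed WT cells (6.42%). DESeq2 called no member in any of these 5 comparisons either. Upon mixing in WT cells, though, it gave an adjusted p to 3792 of 13420 genes, and of the members only to Bad, Bcl2l1 and Mcl1. In the difference it gave none to Bcl2l11, Pmaip1, Bbc3, Bid and Bik. A member without an adjusted p could not be called. With no adjustment, 2 of the 6 had a p under 0.05 by either tool, Bcl2l1 and Pmaip1 in pure cancer against pure WT cells (20.5% of all tested genes by edgeR), and no member did in the other 4 comparisons. Pmaip1 passed the edgeR filter only through its pure cancer libraries. When both cancer groups were averaged against both WT groups, a comparison added after the data were seen, 1 of the 6 members was called, against 14.2% of all tested genes. That member was Bcl2l1.

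**Figure D1:**
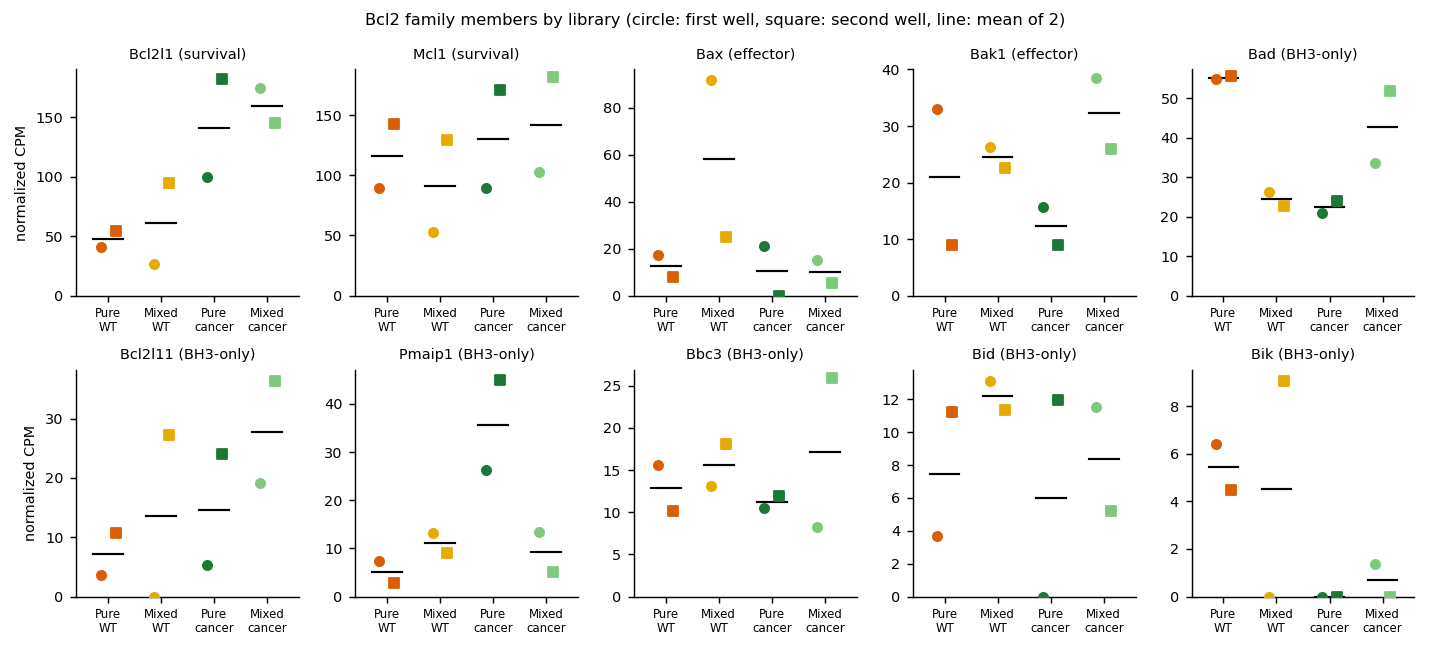
Level of each Bcl2 family member in normalized CPM (linear axis from 0) in the 8 libraries, by group; each point is a library, a circle for the first and a square for the second well of a group, and the line is the mean of 2. The 4 cancer libraries lie between 99.7 and 183 CPM for Bcl2l1, above the 4 WT libraries, while the groups overlap for Mcl1.

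Bcl2l1 (chr2:152780668-152831728, minus strand, GRCm38) encodes the survival protein BCL-XL, which binds BH3-only proteins and both effectors. It stood at 41.2 and 54.0 CPM in pure WT libraries A01 and A05, and at 26.2 and 95.2 CPM in mixed WT libraries A02 and A06. It stood at 99.7 and 183 CPM in pure cancer libraries A03 and A07, and at 175 and 145 CPM in mixed cancer libraries A04 and A08. All 4 cancer libraries lay above all 4 WT libraries, a pattern that 8.24% of tested genes showed, and the margin between the lowest cancer library (A03) and the highest WT library (A06) was narrow. The group means were 160 ± 20.7 CPM in mixed cancer, 141 ± 58.6 in pure cancer, 60.7 ± 48.7 in mixed WT and 47.6 ± 9.03 in pure WT cells (SD, n = 2). In cancer cells the pure and mixed means differed by less than either SD. In WT cells they differed by less than the SD of the mixed group only, where A02 had 2 reads.

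Averaged over both cultures, Bcl2l1 was 2.60-fold higher in cancer than in WT cells (log2 fold change 1.38, standard error 0.42, 95% interval 0.55 to 2.20, adjusted p = 0.0274, edgeR). The value in pure culture was 1.58 (standard error 0.58, adjusted p = 0.0948) and in mixed culture 1.17 (standard error 0.61, adjusted p = 0.350), so neither culture gave a call alone. In pure culture Bcl2l1 was called on barcode counts (1.25, adjusted p = 0.0435), with the wells A01 to A04 and A05 to A08 as a term in the fit (1.55, adjusted p = 0.0465) and without A02 (adjusted p = 0.0499) or A06 (0.0434), libraries that are not in that comparison but enter the estimate of the spread. The averaged call also held on barcode counts (0.89, adjusted p = 0.0489), with the wells as a term (1.45, adjusted p = 0.00447), without a filter on low counts (adjusted p = 0.0428) and with DESeq2 (adjusted p = 0.0265). It was lost when A01 (adjusted p = 0.118), A02 (0.0637), A04 (0.105) or A07 (0.159) was left out, at log2 fold changes of 1.07 to 1.27. Upon mixing, the log2 change of Bcl2l1 was 0.58 in WT cells (95% interval −0.61 to 1.77, adjusted p = 0.826) and 0.17 in cancer cells (−0.95 to 1.29, adjusted p = 1), which does not show that the level stayed the same. Without A06 the value in WT cells was −0.95.

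Most cell type markers moved with the same contrast. Markers of enterocytes, the absorptive cells, summed to 725 to 1429 CPM in WT and 0 to 10.5 CPM in cancer libraries, with 6 of 6 tested markers called lower in cancer cells, and Apoa1 had 0 reads in 3 of the 4 cancer libraries. Secretory cell markers summed to 2543 to 4331 CPM in WT and 458 to 1128 CPM in cancer libraries, with 5 of 6 called lower. The remaining tested marker had a value above 0 in cancer against WT cells. The sums in cancer libraries rest on few markers. In A08, 2 secretory markers had reads, and Tff3 held 15.6 of the summed 799 CPM. The share of enterocytes and secretory cells in the higher Bcl2l1 of cancer cells was not tested, and in bulk RNA fewer cells of a type and less RNA per cell cannot be told apart.

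Mcl1 (chr3:95658788-95663176, plus strand), the short-lived survival protein that Pmaip1 targets, stood at 89.7 and 143 CPM in pure and 52.4 and 129 CPM in mixed WT cells, and 89.2 and 171 CPM in pure and 103 and 182 CPM in mixed cancer cells. All 4 groups overlapped, and wells A01 to A04 lay at 52.4 to 103 CPM against 129 to 182 CPM in wells A05 to A08. Whether wells were processed together is not in the labels. Averaged over both cultures, Mcl1 differed between cancer and WT cells by a log2 fold change of 0.31 (95% interval −0.49 to 1.11, adjusted p = 0.708), and with the wells as a term by 0.38 (adjusted p = 0.587). Upon mixing the value was −0.21 in WT cells (−1.34 to 0.93) and 0.05 in cancer cells (−1.07 to 1.18).

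On reads, the Bcl2l1 share of the survival genes was higher in the cancer libraries, by a narrow margin. Bcl2l1 took 31.5% and 27.4% of the survival reads of the pure and 33.3% and 42.4% of those of the mixed WT libraries. It took 52.8% and 51.7% in pure cancer and 63.0% and 44.4% in mixed cancer libraries. The lowest cancer share, 44.4% in A08 (95% Wilson interval 32.8 to 56.7%), lay just above the highest WT share, 42.4% in A06 (33.2 to 52.3%), and the intervals of these libraries overlapped. On barcode counts, which leave out amplification copies, A06 (47.9%) and A08 (46.2%) changed places. This share was added after the data were seen, rests on the same Bcl2l1 reads as the levels above, and carries no test.

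**Figure D2:**
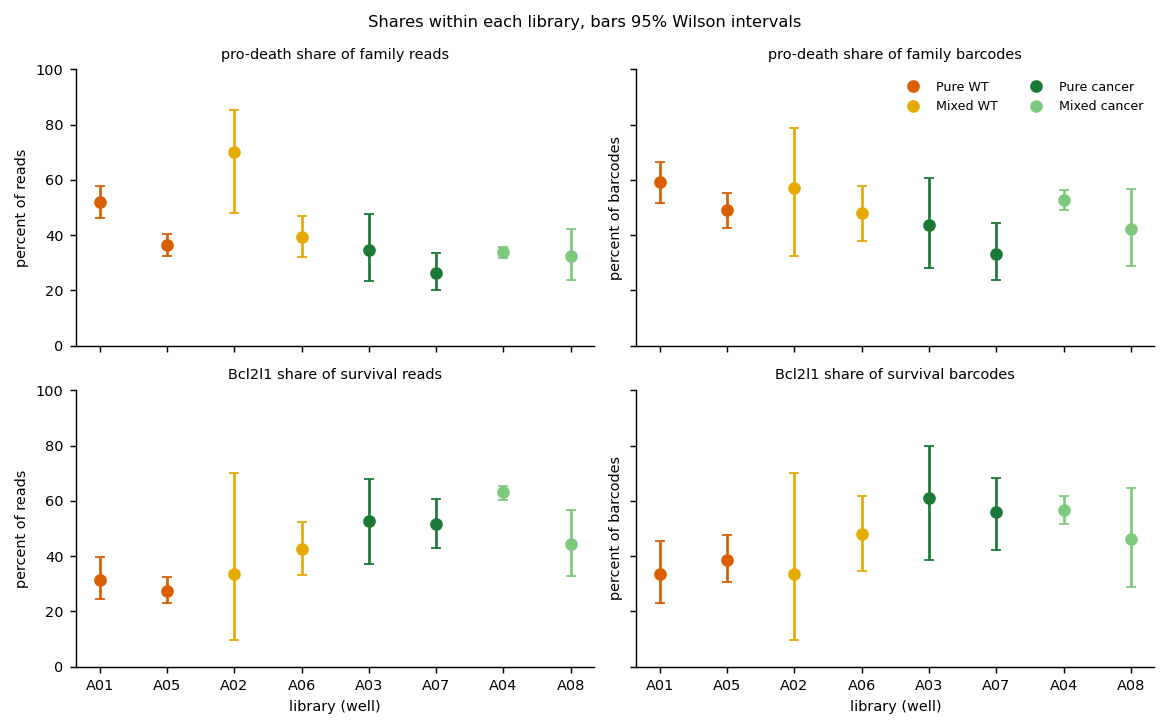
Pro-death share of all reads or barcodes on the 10 members (top) and Bcl2l1 share of those on the survival genes (bottom), in percent for each of the 8 libraries, with 95% Wilson intervals as bars and groups by color. On reads the 4 WT libraries hold the higher pro-death shares (36.2 to 70%) and the 4 cancer libraries the lower (26.3 to 34.5%), and on barcodes the ranges overlap.

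The balance of the family was taken as the share of its reads on pro-death members. In WT cells this share was 52.0% (A01) and 36.2% (A05) in pure and 70% (A02) and 39.3% (A06) in mixed culture. In cancer cells it was 34.5% (A03) and 26.3% (A07) in pure and 33.8% (A04) and 32.3% (A08) in mixed culture. All 4 cancer libraries lay below all 4 WT libraries, but A05 at 36.2% (95% interval 32.3 to 40.4%) and A04 at 33.8% (31.8 to 35.8%) were close, and the 70% of A02 rests on 14 of 20 reads (48.1 to 85.5%). Bcl2l1 reads are part of the total, so this order is not a result separate from the Bcl2l1 level. A share without Bcl2l1 was not taken. On barcode counts the order did not hold, since A04 was at 52.8% and WT libraries ran from 47.8 to 59.3%. The other cancer libraries ran from 33.3 to 43.8%. In A04, the deepest library, Bcl2l1 and Mcl1 had 4.60 and 3.54 reads per barcode, against 1.30 to 2.33 for the pro-death members. Barcode counts level off for abundant genes, and how far this moved the share of A04 was not tested. The group means on reads were 44.1 ± 11.1% in pure and 54.6 ± 21.7% in mixed WT cells, and 30.4 ± 5.87% in pure and 33.0 ± 1.07% in mixed cancer cells (SD, n = 2). On reads, pure and mixed means of either cell type thus lay within the spread of the libraries. On barcode counts the order of the WT groups turned, with 54.1 ± 7.27% in pure and 52.5 ± 6.59% in mixed WT cells, also within the spread. In cancer cells the barcode means were 38.5 ± 7.37% in pure and 47.5 ± 7.50% in mixed culture, further apart than either SD. Single libraries still overlapped, with mixed A08 at 42.2% and pure A03 at 43.8%.

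Within the pro-death reads, Bad, Bak1 and Bbc3 had reads in every library. Bad took a median of 27.2% of them in WT and 22.4% in cancer libraries, and Bak1 15.0% and 16.2%. Pmaip1 took 2.51 to 7.14% in WT libraries and 3.33 to 35.7% in cancer libraries, and Bik 0 to 6.25% and 0 to 0.970%. These shares rest on 14 to 722 pro-death reads per library.

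The effector Bax (chr7:45461697-45466898, minus strand) forms pores in the outer mitochondrial membrane. It did not pass the filter of the fit over all 8 libraries and was not tested there. Bax reads numbered 19 and 14 in pure (A01, A05) and 7 and 11 in mixed WT libraries (A02, A06), and 4 and 0 in pure (A03, A07) and 78 and 1 in mixed cancer libraries (A04, A08). These make 17.4 and 7.87 CPM in pure and 91.8 and 24.9 CPM in mixed WT cells, and 21.0 and 0 CPM in pure and 15.3 and 5.19 CPM in mixed cancer cells. Both mixed WT libraries were above both pure WT libraries, with the highest value in the shallowest library, where Bax had 3 barcodes. A fit without the filter gave a log2 fold change of 1.76 upon mixing in WT cells (standard error 0.98, adjusted p = 0.816), and one on barcode counts gave 1.00 (adjusted p = 0.636). A fit of only the WT libraries, where Bax passed the filter, gave 1.88 (adjusted p = 0.338, edgeR). The gene overlaps Gm45808 on the same strand in GENCODE vM21.

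Promoters of members were read because Bax, Bbc3 and Pmaip1 are known p53 targets. RefSeq windows (GRCm38.p6) from 250 bases before to 50 bases after a start were searched on both strands, 14 windows of 8 members (Pmaip1 and Bik were not searched), for the 10-base repeat unit of the p53 element, named here and not spelled out, and for the E-box CACGTG, which MYC binds. The p53 unit was in 1 of the 14 windows and in 8.36% of all 32851 promoters, and the E-box was in 2 windows and in 7.15% of promoters. The window with the p53 unit was that of Bax, where it began 201 bases before the start, and an E-box began 9 bases before and another 35 bases after it. The 3 windows of Bcl2l1, the member called between cell types, had no match to either motif. The bases before the start are printed 5′ to 3′ on the gene's strand for both genes, with matches in capitals, at chr7:45466899-45467148 (minus strand) for Bax and chr2:152831729-152831978 (minus strand) for Bcl2l1.
Bax: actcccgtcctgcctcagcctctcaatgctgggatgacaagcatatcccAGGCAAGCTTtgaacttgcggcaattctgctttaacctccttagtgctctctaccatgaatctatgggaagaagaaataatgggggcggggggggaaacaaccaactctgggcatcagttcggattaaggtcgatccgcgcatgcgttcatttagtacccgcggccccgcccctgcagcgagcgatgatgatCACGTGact
Bcl2l1: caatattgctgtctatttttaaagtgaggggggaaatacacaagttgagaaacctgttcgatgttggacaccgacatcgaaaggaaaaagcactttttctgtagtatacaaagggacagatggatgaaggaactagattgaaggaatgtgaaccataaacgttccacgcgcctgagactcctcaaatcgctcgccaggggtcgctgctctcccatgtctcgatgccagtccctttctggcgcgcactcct
A match describes the letters of these windows and no binding was measured.

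Among the 8 members with a read in each WT library, 3 (Bax, Bid and Pmaip1) were higher in both mixed than in both pure WT libraries, and 1 (Bad) was lower in both. Of all genes with a read in each WT library, 22.3% were higher and 22.9% lower in the same way. Bid and Pmaip1 had 1 read each in A02, below the 3 reads that a count of 0 allows.

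Bak1 (chr17:27019810-27029009, minus strand), the effector that resides in the mitochondrial membrane, stood at 32.9 and 8.99 CPM in pure and 26.2 and 22.7 CPM in mixed WT cells, and 15.7 and 8.98 CPM in pure and 38.5 and 25.9 CPM in mixed cancer cells. Both mixed cancer libraries lay above both pure cancer libraries, which held 3 reads each, and the share of all genes with this order was not counted. The log2 change upon mixing was 1.52 in cancer cells (standard error 0.98, adjusted p = 1) and 0.20 in WT cells (standard error 0.92, adjusted p = 0.978). The gene overlaps Ggnbp1 on the opposite strand.

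Bad (chr19:6941861-6951899, plus strand), a BH3-only protein that growth factor signaling holds inactive by phosphorylation, stood at 54.9 and 55.6 CPM in pure and at 26.2 and 22.7 CPM in mixed WT cells. It stood at 21.0 and 23.9 CPM in pure cancer and at 33.7 and 51.9 CPM in mixed cancer cells. Pure WT libraries held 60 and 99 reads, while mixed WT and pure cancer libraries held 2 to 10. Upon mixing, the log2 change was −1.22 in WT cells (standard error 0.78, adjusted p = 0.677) and 0.84 in cancer cells (standard error 0.78, adjusted p = 1). The difference between both changes was −2.06 (95% interval −4.22 to 0.11, adjusted p = 0.749), and pure cancer against pure WT cells gave −1.28 (standard error 0.75, adjusted p = 0.356). Bad overlaps Gpr137 on the opposite strand, and the strand setting of the counting is not given in the sources used here.

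Pmaip1 (chr18:66458533-66465565, plus strand), a BH3-only protein that neutralizes Mcl1, stood at 7.32 and 2.81 CPM in pure and 13.1 and 9.06 CPM in mixed WT cells, and 26.2 and 44.9 CPM in pure and 13.5 and 5.19 CPM in mixed cancer cells. Both pure cancer libraries (5 and 15 reads) were above every other library, and the share of all genes with this order was not counted. Pure cancer against pure WT cells gave the largest log2 fold change of any tested member in the 5 planned comparisons, 2.87 (standard error 1.04, adjusted p = 0.0889). A fit of only the 4 libraries compared gave 2.89 with an adjusted p of 0.0346, and DESeq2 an adjusted p of 0.150. In both edgeR fits only the pure cancer libraries met the minimum count of the filter for Pmaip1. It was thus tested through the group where it is high, and these edgeR values are no support for a difference. In cancer cells the change upon mixing was −1.69 (standard error 1.01, adjusted p = 1), in WT cells 1.02 (standard error 1.26, adjusted p = 0.864), and the difference between both was 2.71 (95% interval −0.47 to 5.90, adjusted p = 0.779).

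Bcl2l11 (chr2:128126038-128162547, plus strand), a BH3-only protein that binds all survival proteins, stood at 3.66 and 10.7 CPM in pure and 0 and 27.2 CPM in mixed WT cells, and 5.25 and 23.9 CPM in pure and 19.2 and 36.3 CPM in mixed cancer cells. Every group overlapped another, and the libraries of a group lay far apart. The log2 change upon mixing was 1.39 in WT cells (standard error 1.08, adjusted p = 0.747), which rests on the 12 reads of A06 since A02 had 0, and 0.66 in cancer cells (standard error 1.09, adjusted p = 1).

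The other BH3-only genes were sparse. Bbc3 (chr7:16308393-16318205), a main p53 target in death of crypt cells, had 1 to 42 reads per library and ran from 8.22 to 25.9 CPM, with both extremes in mixed cancer cells. Bid (chr6:120891930-120916853), which caspase 8 cleaves to link death receptors to mitochondria, had 0 to 59 reads and at most 13.1 CPM, and it overlaps Bcl2l13 on the opposite strand. Bik (chr15:83526862-83544634), a BH3-only protein of the endoplasmic reticulum, had 7 and 8 reads in pure WT cells (6.41 and 4.50 CPM), 0 and 4 in mixed WT cells, none in pure cancer cells, and 7 and 0 in mixed cancer cells. A count of 0 in both pure cancer libraries allows up to 5.72 CPM, so a difference from the 5.45 ± 1.35 CPM (SD, n = 2) of pure WT cells was not detectable at this depth. The 7 reads of mixed cancer library A04 make 1.37 CPM. Without the filter, the averaged log2 fold change of Bik in cancer against WT cells was −4.01 (adjusted p = 0.239).

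**Figure D3:**
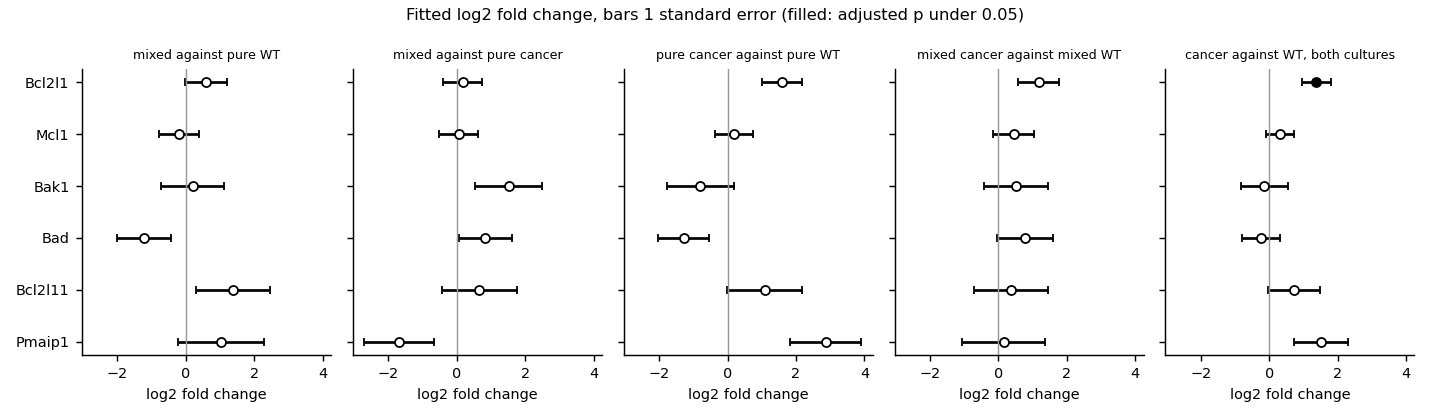
Fitted log2 fold change of the 6 tested members (x axis) in 5 comparisons, with 1 standard error as bars; filled points have an adjusted p under 0.05 (edgeR). Bcl2l1 in cancer against WT cells over both cultures, at 1.38, is the only filled point, and the comparisons share libraries.

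Over the 6 tested members, the median log2 change upon mixing was 0.39 in WT cells, against −0.10 for all tested genes, and 0.42 in cancer cells, against 0.03. For the 4 tested pro-death members it was 0.61 and 0.75, and for both survival members 0.19 and 0.11. Standard errors of single members ran from 0.57 to 1.26 in these comparisons. In mixed culture all 6 tested members had a value above 0 in cancer against WT cells, with a median of 0.48, where 55.0% of all tested genes did. The members that the filter left out went the other way. Without the filter, Bax gave −1.81, Bbc3 −0.29, Bid −0.18 and Bik −2.31 in the same comparison.

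The p53 genes are shown beside the family because p53 drives several BH3-only genes. Trp53 itself, altered in the cancer line, stood at 178 and 324 CPM in pure and 13.1 and 174 CPM in mixed WT cells, and 5.25 and 71.8 CPM in pure and 67.3 and 46.7 CPM in mixed cancer cells. It was lower in pure cancer than in pure WT cells (log2 fold change −2.56, standard error 0.77, adjusted p = 0.0323), and this call was lost without A03 (adjusted p = 0.108) or A05 (0.253) and at a minimum count of 50 (0.0530). Reads cover the 3′ end, so they do not tell the altered allele from the intact gene. Apc had 0 to 22 reads per library, too few for a test.

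Of 24 genes listed for p53 and its targets (Fas, Tnfrsf10b and Apaf1 are also in the death lists), 12 were tested. Upon mixing, 11 of the 12 had a log2 change above 0 in WT cells, with a median of 1.14, where 44.8% of all tested genes did, with a median of −0.10. The remaining gene was Trp53 itself (−1.15, standard error 0.71, adjusted p = 0.664, edgeR). None of the 12 was called by edgeR or DESeq2 and 4 had an unadjusted p under 0.05, against 9.67% of all tested genes. Cdkn1a, the p21 cell cycle inhibitor, was called under some of the alternatives. It stood at 278 and 74.2 CPM in pure and 367 and 834 CPM in mixed WT cells, a log2 change of 1.81 (adjusted p = 0.234, edgeR). It was called with the wells as a term (2.21, adjusted p = 0.00260), on barcode counts (1.77, adjusted p = 0.00388), in a fit of only these 4 libraries (1.84, adjusted p = 0.0195) and without A01, A02, A03 or A07 (adjusted p = 0.0161 to 0.0473). Gdf15, a secreted stress factor, was called on barcode counts (2.74, adjusted p = 0.0345). The summed level of the 23 of these genes in the table, Trp53 included, was 864 and 995 CPM in pure and 1534 and 2014 CPM in mixed WT cells, and 383 to 437 CPM in pure and 475 to 503 CPM in mixed cancer cells. In mixed culture 5 of the 12 were called lower in cancer than in WT cells and none higher. Those with the lowest adjusted p were Ephx1, an epoxide hydrolase (log2 fold change −3.86, adjusted p = 0.000213), Ccng1, the cyclin G1 gene (−3.28, adjusted p = 0.00662), Cdkn1a (−2.57, adjusted p = 0.0115), and Perp, a membrane protein in p53-driven death (−2.52, adjusted p = 0.0352). The call of Cdkn1a was lost without A06 (adjusted p = 0.172), that of Ccng1 without A02 (0.0520) or A04 (0.128), and that of Perp without A04, A05, A06 or A08 (0.0566 to 0.285). In pure culture the called genes were Ephx1 (−3.57, adjusted p = 0.00123) and Trp53. Averaged over both cultures, Gdf15 was also called lower in cancer cells (adjusted p = 0.00890), though not without A01 (adjusted p = 0.175). It stood at 22.9 and 2.25 CPM in pure and 105 and 58.9 CPM in mixed WT libraries, at 0 in both pure cancer libraries, and at 4.70 and 5.19 CPM in the mixed ones.

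**Figure D4:**
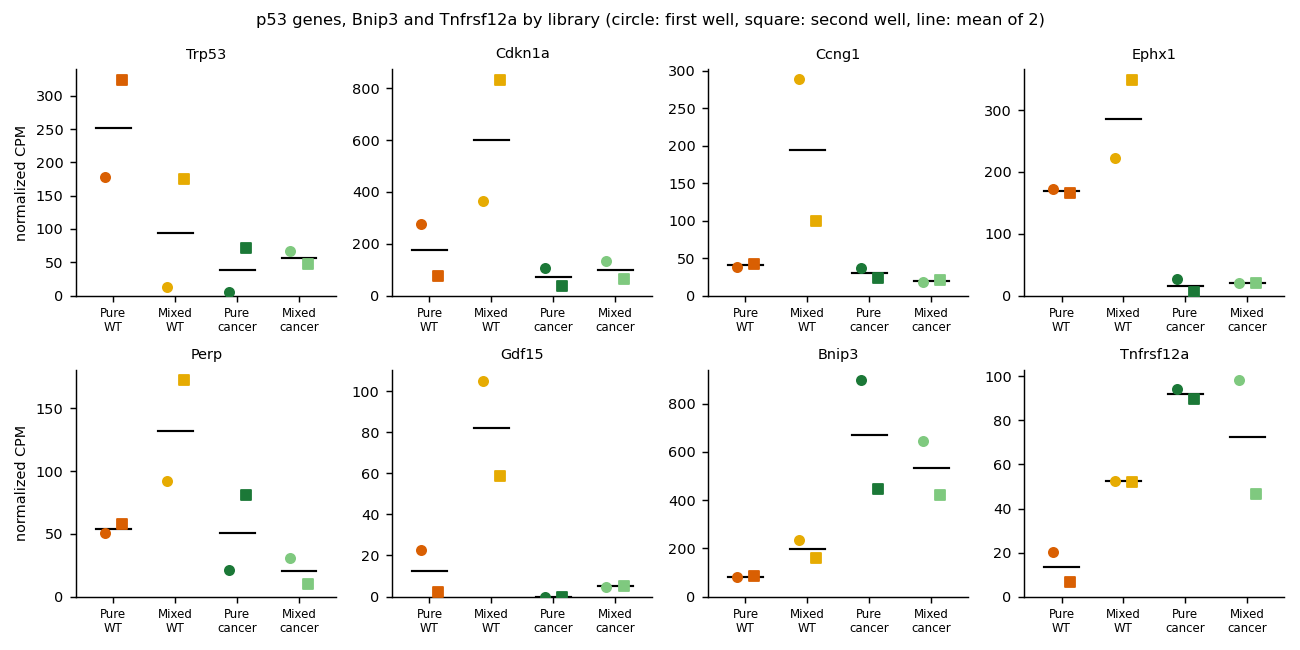
Level of Trp53, of p53 targets, of Bnip3 and of Tnfrsf12a in normalized CPM (linear axis from 0) in the 8 libraries by group, a circle for the first and a square for the second well, with the mean of 2 as a line. Ephx1 lies at 166 to 349 CPM in WT and at 5.99 to 26.2 CPM in cancer libraries, while Bnip3 is the higher in all 4 cancer libraries.

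Among 16 further genes of the Bcl2 family, 10 were listed and 5 tested, and the called gene was Bnip3, a mitochondrial protein known for its response to low oxygen and its role in mitophagy. It stood at 79.6 and 86.0 CPM in pure and 236 and 161 CPM in mixed WT cells, and 897 and 446 CPM in pure and 645 and 420 CPM in mixed cancer cells. All 4 cancer libraries lay above all 4 WT libraries. It was higher in pure cancer than in pure WT cells (log2 fold change 3.01, standard error 0.50, adjusted p = 0.00021) and over both cultures (2.25, standard error 0.35, adjusted p = 4.67e-05), and both calls held with each library left out in turn. In mixed culture Bnip3 was not called (1.49, adjusted p = 0.0833, edgeR), though it was with the wells as a term (1.42, adjusted p = 0.0229). On barcode counts Bnip3l (1.31, adjusted p = 0.0266) and Bok (1.35, adjusted p = 0.0342) were also called higher in pure cancer than in pure WT cells. Bcl2l14 went the other way over both cultures and was not called (−2.12, adjusted p = 0.0799, edgeR). Upon mixing in WT cells all 5 tested genes had a value above 0, with a median of 1.07, where 44.8% of all tested genes did, with a median of −0.10. None of the 5 was called by either tool, and 2 had an unadjusted p under 0.05, against 9.67% of all tested genes.

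Of 22 genes of the mitochondrial death pathway, 14 were tested. Of 16 genes of the death receptor pathway, 10 were tested, and the called gene was Tnfrsf12a, the receptor of the cytokine TWEAK, which was higher in pure cancer than in pure WT cells (2.81, adjusted p = 0.0120, and 0.269 without A05). Upon mixing in WT cells no gene of either list was called by edgeR or DESeq2, and 1 of 14 and 2 of 10 had an unadjusted p under 0.05, against 9.67% of all tested genes. On barcode counts 1 gene of each list was called, Birc5, the survivin gene, as lower in mixed WT cells (−2.07, adjusted p = 0.0186) and Casp8, the initiator of death receptor signaling, as higher (1.96, adjusted p = 0.00584). Birc5 was also called without A03 or A07 (adjusted p = 0.0461 and 0.0405) and Casp8 without A02 (0.0390). Of 14 regulators of Bcl2 family genes, such as Atf4 and Stat3, 9 were tested and none was called by either tool in any comparison, with 1 at an unadjusted p under 0.05, in mixed cancer against mixed WT cells (16.4% of all tested genes). Over both cultures, the log2 fold changes of Jun and Stat3 were 5.33 and 5.29 without A06, against 0.46 and 0.50 with all 8 libraries. Without A06 the only mixed WT library was A02, with 73109 reads. Fos went the other way, at −2.43 without A07 and −1.04 with all 8 libraries.

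The genes whose log2 CPM followed Bcl2l1 most closely over the 8 libraries were Itga3 (Pearson r = 0.986), Flna (0.979) and Ctsl (0.977), out of 2745 genes with a mean of at least 50 reads. Those closest to Mcl1 were Rab25 (0.966), Ric8 (0.959) and Rnasek (0.959). These values describe 8 libraries that fall into WT and cancer cells and differ in depth, and no test was made.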

How the data were processed

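Per the study's methods, the authors aligned read 2 to the mm10 RefSeq transcriptome with BWA, discarded reads that mapped equally well to several places, and counted reads per gene with featureCounts. The deposited read counts are not normalized and include amplification copies. The deposited barcode counts are distinct molecule barcodes per gene, which level off for abundant genes. A further table of estimated counts of transcripts, made by the authors from the barcodes, was not used, nor was their DESeq2 1.22.2 table of mixed against pure WT cells, which holds mean normalized counts, log2 fold changes and p-values. A spike-in and eGFP (2 entries) were left out.

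Read counts of all 8 libraries entered an edgeR 4.0.16 quasi-likelihood fit in R 4.3.3, with TMM factors, filterByExpr at a minimum count of 10 and Benjamini-Hochberg adjustment over 5264 tested genes. Standard errors are the absolute log2 fold change over the square root of F. The fit was tested on simulated data. Alternatives were a minimum count of 50 or no filter, median-of-ratios factors, barcode counts, only the libraries compared, DESeq2 1.42.0, each library left out, and the wells A01 to A04 against A05 to A08 as a term. The last of these, the averaged comparison and the Bcl2l1 share were added after the data were seen. Members and the 10 hand-written gene lists were chosen with earlier results of these data known. Named genes are the members, Trp53, Apc, called list genes (at most the 4 of lowest adjusted p per list and comparison) and the 3 genes most like a member of at least 50 mean reads. Some items under this rule, and an allele of the cancer line, are not reported here. Positions are from GENCODE vM21 (GRCm38), the same assembly as mm10.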

Additional observations from a re-analysis of the deposited data

How the results depend on the processing

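Depth limited most members, since A02, A03 and A08 held 20, 55 and 93 reads on the whole family, and no alternative called a member upon mixing. In mixed against pure WT cells DESeq2 gave most members no adjusted p, so it could not call them. Of 473 alternative log2 fold changes of members, 432 kept their direction and their side of the threshold and 32 changed direction, 26 of them when a library was left out, spread over 16 of 36 values, none of them called. The cause of these changes was not tested. Beyond single libraries, barcode counts gave −0.018 for Bak1 and 0.074 for Mcl1 in mixed against pure WT cells and −0.12 for Bcl2l1 in mixed against pure cancer cells, and DESeq2 gave −0.017 for Pmaip1 in mixed cancer against mixed WT cells. A fit with the wells A01 to A04 and A05 to A08 as a term, added after the data were seen, gave −0.12 for the same value and −0.084 for Bcl2l11 in the difference between both changes.

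With each library left out in turn, the values that changed direction ran as follows. In mixed against pure WT cells Bak1 ran from −0.44 to 1.40, Bcl2l1 from −0.95 to 0.95 and Mcl1 from −1.24 to 0.17. In mixed against pure cancer cells Bcl2l1 ran from −0.17 to 0.76 and Mcl1 from −0.32 to 0.67. In the difference between both changes Bcl2l1 ran from −1.12 to 0.78, Bcl2l11 from −0.90 to 1.55 and Mcl1 from −1.28 to 0.083. In pure cancer against pure WT cells Bak1 ran from −1.38 to 0.35, Bcl2l11 from −0.59 to 2.17 and Mcl1 from −0.48 to 0.66. In mixed cancer against mixed WT cells Bcl2l11 ran from −0.13 to 0.90 and Pmaip1 from −0.96 to 0.47. Over both cultures Bak1 ran from −0.40 to 0.41, Bcl2l11 from −0.14 to 1.39 and Mcl1 from −0.030 to 0.80. Bcl2l11 gave no value in 4 comparisons without A06, since the remaining mixed WT library had 0 reads.

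In pure cancer against pure WT cells 1 member was called on barcode counts and with the wells as a term (Bcl2l1 in both) and 1 in a fit of only the libraries compared (Pmaip1), and 0 to 1 with a library left out. Pmaip1 passed the filter of the fit that called it only through the pure cancer libraries. Over both cultures 0 to 1 member was called with a library left out, and the call of Bcl2l1 was lost without A01, A02, A04 or A07. The pro-death share moved with its definition, and each definition tried keeps Bcl2l1 in the total. Without Mcl1 it was 72.5% in pure and 73.9% in mixed WT cells, and 45.4% in pure and 48.2% in mixed cancer cells. With Bax and Bcl2l1 alone it was 21.2% in pure and 49.3 ± 40.3% (SD, n = 2) in mixed WT cells, and 8.70% in pure and 5.74% in mixed cancer cells. On barcode counts it was 54.1% in pure and 52.5% in mixed WT cells, and 38.5% in pure and 47.5% in mixed cancer cells. The Bcl2l1 share of the survival genes on barcode counts was 36.0% in pure and 40.6% in mixed WT cells. In cancer cells it was 58.4% in pure and 51.4% in mixed culture.

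Over all genes, calls in mixed against pure WT cells numbered 39 and ran from 2 (without A06) to 118 (without A07), with 68 without a filter, 93 on barcode counts, 108 in a fit of only the libraries compared, 119 with the wells as a term and 66 with DESeq2. Calls in the difference numbered 4 and ran from 1 to 32, with 30 with the wells as a term. Calls in pure cancer against pure WT cells numbered 524 and ran from 232 (minimum count 50) to 745, those in mixed cancer against mixed WT cells 338 and from 151 to 506, and those over both cultures 746 and from 314 to 963. The groups share no replicate numbers, so the labels pair no libraries, and the fit with the wells as a term rests on the well names alone.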
